A study of Homo sapiens with 54 samples.

Results

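RPL22L1 and RPL22 are a pair of human genes that encode closely related proteins of the large ribosomal subunit. They were taken by symbol from deposited tables of 59368 genes and 227301 transcripts, and the pair was selected on the lower level of RPL22L1 under 5-fluorouracil (5-FU). The comparison of 5-FU with uracil is therefore given here as a description with no test. The 2 genes had 13 transcripts in the per-library tables, 6 of RPL22L1 and 7 of RPL22. RNA was sequenced from HCT-116, DLD-1 and HT-29, 3 lines grown from human colorectal cancers, each as 5-FU-sensitive cells and as cells labelled 5-FU-resistant, which the study obtained by prolonged growth in rising 5-FU concentrations and keeps in medium that holds the drug. The control was 10 µM uracil. Other cells were given 5-FU at 10 µM, alone or followed by a change of medium and X-ray irradiation at the median lethal dose of the line, and treatment with uracil or 5-FU lasted 24 h. The irradiated groups of all lines had therefore also received 5-FU. No group received irradiation alone. Each of the 18 groups held 3 libraries, which the study describes as biological replicates, and the 54 libraries of poly(A)-selected RNA had 38957142 to 218518344 estimated counts (median 51373543). The deepest was the sensitive DLD-1 uracil library of replicate 2. The counts assigned to the members ranged from 680 to 31045 for RPL22L1 and from 12546 to 70035 for RPL22.

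RPL22 sits on the surface of the large ribosomal subunit and is not needed for the ribosome to form. RPL22L1 can take its place in the ribosome. RPL22 protein is also known to bind RNA, including RNA from the RPL22L1 gene, and loss of RPL22 is known to raise RPL22L1. RPL22 is a frequent site of frameshift mutation in colorectal tumours with defective mismatch repair. 5-FU is a pyrimidine analogue that inhibits thymidylate synthase and is built into RNA and DNA.

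The libraries labelled resistant HT-29 did not carry the genes that mark HT-29. Markers were genes at 10 TPM or more in the uracil libraries of 1 sensitive line and at 0.1 TPM or less in both others, where TPM, a share of all transcripts on a common scale, is a level corrected for transcript length and library depth. Of the 12 HT-29 markers and of the 20 DLD-1 markers, 0% reached 1 TPM in these libraries, whereas 96.9% of the 64 HCT-116 markers did. Resistant DLD-1 and resistant HCT-116 libraries held 95% and 96.9% of the markers of their own line. They are therefore called the libraries labelled resistant HT-29, and results that rest on them are given with and without them. Of the 6 epithelial markers, 5 were above 1 TPM in all 18 groups and CDX2 in 15 of 18, the lowest being sensitive HT-29 under uracil at 0.194 TPM. PTPRC, CD3E, COL3A1 and ALB, which mark leukocytes, T cells, fibroblasts and hepatocytes, were under 1 TPM in every group, while COL1A1 reached 28.8 TPM and PECAM1 4.55 TPM.

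On GRCh38, RPL22L1 lies at chr3:170864875-170870208 and RPL22 at chr1:6185020-6209389, both on the minus strand, as annotated in GENCODE 44. The lengths of all 13 transcripts in the deposited tables equalled those of that annotation. Of the RPL22L1 transcripts, RPL22L1-201, RPL22L1-202 and RPL22L1-203 are annotated as protein coding, RPL22L1-204 and RPL22L1-206 as targets of nonsense-mediated decay, and RPL22L1-205 as a retained intron. RPL22L1-205 was at 0 TPM in every library. The decay-annotated pair begins its exon 3 67 bases upstream of the start that the coding transcripts use, so that exon is 189 rather than 122 bases long. Since 67 leaves a remainder of 1 after division by 3, the added bases shift the reading frame. RPL22L1-204 then meets a stop codon at chr3:170868109-170868111, 96 bases before the end of its exon 3 and upstream of the last exon junction. Nonsense-mediated decay is the pathway that degrades RNAs with a stop codon in such a place. The sequence around this exon start is shown because the results on isoforms turn on it, in capitals the 67 added bases (chr3:170868135-170868201) and the stop codon of RPL22L1-204. A second window shows the start of exon 2, in capitals the 3 bases that RPL22L1-201, RPL22L1-203 and RPL22L1-204 include and RPL22L1-202 and RPL22L1-206 leave out.
RPL22L1 exon 3, chr3:170868105-170868231, minus strand: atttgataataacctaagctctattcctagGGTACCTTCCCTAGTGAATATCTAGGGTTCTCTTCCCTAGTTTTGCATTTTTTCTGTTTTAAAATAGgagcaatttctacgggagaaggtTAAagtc
RPL22L1 exon 2, chr3:170868361-170868410, minus strand: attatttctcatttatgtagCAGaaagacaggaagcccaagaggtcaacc

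**Figure D1:**
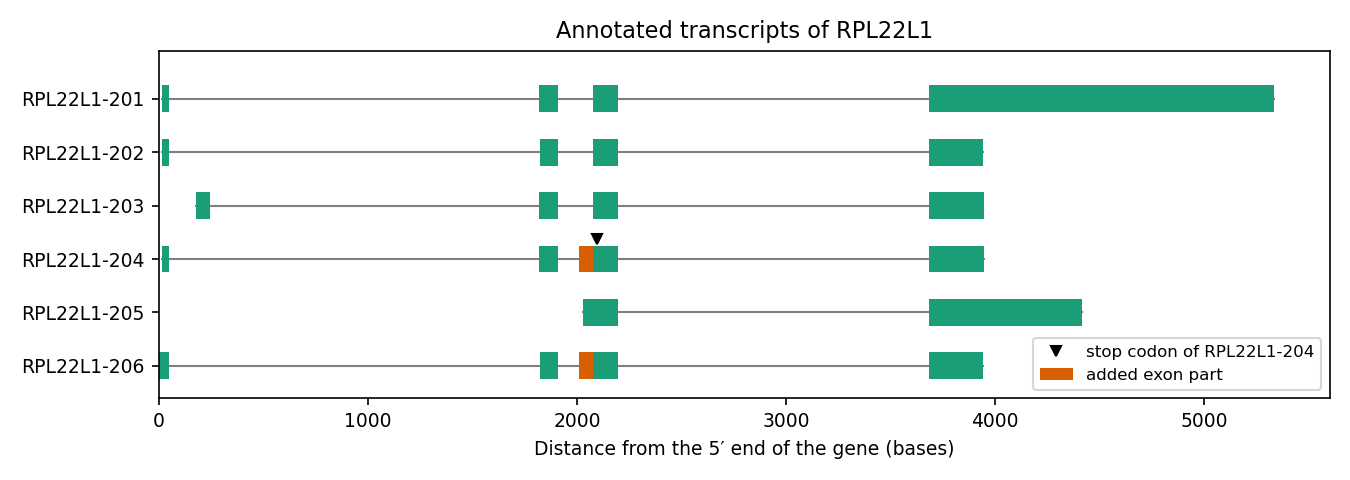
Exons (boxes) of the 6 annotated RPL22L1 transcripts against distance from the 5′ end of the gene in bases. RPL22L1-204 and RPL22L1-206 have the added 67 bases of exon 3, drawn in orange, and the triangle marks the stop codon of RPL22L1-204.

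The coding sequences of the paralogs, 387 bases for RPL22 and 369 for RPL22L1, were identical at 253 of 369 aligned bases (68.6%). The most alike stretch of 75 bases, shown because reads from it had the greatest chance of fitting both genes, differed at 14 positions. Its differing bases are in capitals.
RPL22 coding bases 231 to 305: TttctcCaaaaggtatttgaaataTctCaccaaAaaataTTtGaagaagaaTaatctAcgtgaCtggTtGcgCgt
RPL22L1 coding bases 213 to 287: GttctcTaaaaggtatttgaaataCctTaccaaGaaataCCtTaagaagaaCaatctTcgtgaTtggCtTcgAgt
The quantifier assigned reads by matching short words of sequence, and of the 4682 words of 31 bases in the RPL22 transcripts and the 2078 in those of RPL22L1 the paralogs shared 0. A processed pseudogene, RPL22P1 at chr3:169483671-169484080, shared 293 of its 380 words with RPL22. It was listed at 55.2 to 305 TPM, and its highest replicate was more than 2 times its lowest in 8 of 18 groups, against 0 of 18 for RPL22. How reads were divided between RPL22 and RPL22P1 is therefore uncertain. Among the 22 annotated RPL22 copies in the table, the others reached at most 4.74 TPM.

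In the sensitive uracil controls, RPL22L1 was about as abundant as RPL22 in DLD-1 and HCT-116 and far below it in HT-29. RPL22L1 was at 694, 649.8 and 651 TPM in DLD-1, at 819, 800.1 and 837 TPM in HCT-116 and at 108, 91.7 and 94.2 TPM in HT-29. RPL22 was at 641, 612 and 617 TPM in DLD-1, at 847, 843 and 823 TPM in HCT-116 and at 989, 956 and 938 TPM in HT-29. The line with the least RPL22L1 had the most RPL22, and for neither gene did the libraries of HT-29 overlap those of the others. The ratio of RPL22L1 to RPL22 was 1.07 ± 0.01 (SD, n = 3) for DLD-1, 0.977 ± 0.035 for HCT-116 and 0.102 ± 0.007 for HT-29.

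Tested with edgeR's quasi-likelihood test over all 54 libraries, with Benjamini-Hochberg adjustment over 26043 genes and an adjusted p of at most 0.01 as the threshold, RPL22L1 was lower in HT-29 than in DLD-1 by a log2 fold change of -2.66 ± 0.06 (SE, adjusted p = 1.87e-39) and than in HCT-116 by -2.91 ± 0.06 (adjusted p = 3.66e-41). RPL22 was higher in HT-29, by 0.87 ± 0.05 against DLD-1 (adjusted p = 3.68e-22) and by 0.53 ± 0.05 against HCT-116 (adjusted p = 2.11e-14). HCT-116 exceeded DLD-1 in both genes, by 0.25 ± 0.05 for RPL22L1 (adjusted p = 1.9e-05) and 0.34 ± 0.05 for RPL22 (adjusted p = 1.36e-08). Differences between lines were common, since 58.8% of all genes passed in HT-29 against DLD-1, 63.7% in HT-29 against HCT-116 and 59.8% in HCT-116 against DLD-1. Among the 78 other ribosomal protein genes, whose median was 1970 to 2035 TPM in these controls, RPL22L1 had a higher level than 1 gene of the list for DLD-1, 1 for HCT-116 and 0 for HT-29, and RPL22 than 1, 1 and 6, respectively. Both paralogs were thus near the bottom of the ribosomal protein genes in level.

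**Figure D2:**
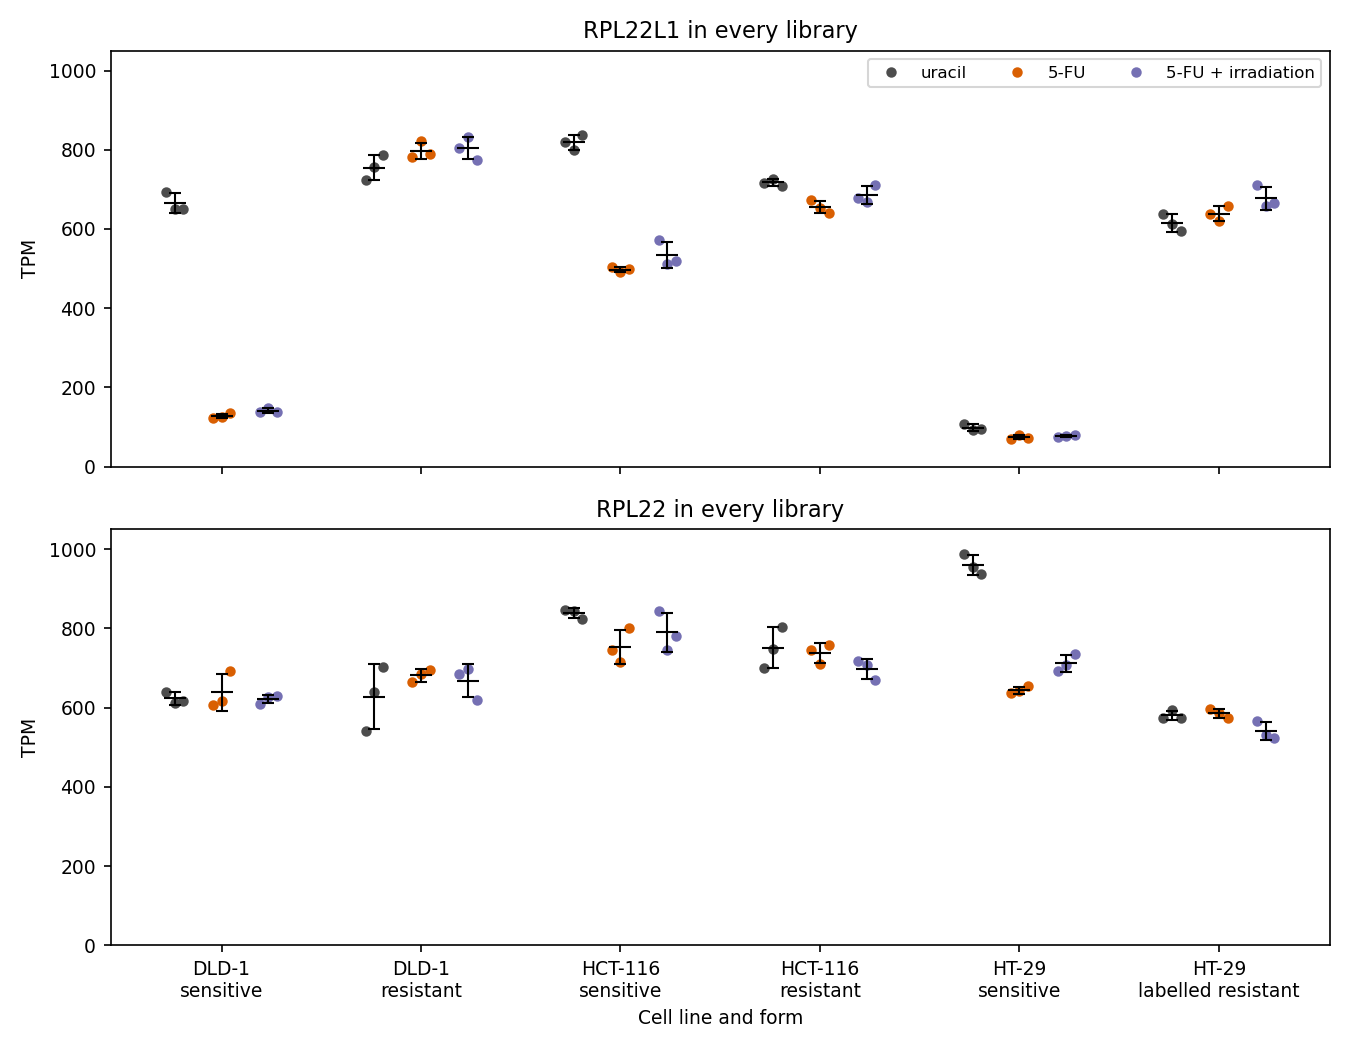
TPM of RPL22L1 (top) and RPL22 (bottom) in each of the 54 libraries, by cell line and form, with bars at the mean ± SD of 3 libraries. Under 5-FU, RPL22L1 of sensitive DLD-1 sits at 124 to 135 TPM against 649.8 to 694 TPM under uracil, while the resistant groups stay between 595 and 832 TPM.

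Under 5-FU, sensitive DLD-1 cells had 19.2% of their uracil level of RPL22L1. The 3 libraries were at 124, 125 and 135 TPM. In sensitive HCT-116 the level was 60.7% of uracil, at 503, 490.3 and 498 TPM. In sensitive HT-29 it was 75.6%, at 70.3, 79.7 and 72.2 TPM. In all 3 sensitive lines every 5-FU library lay below every uracil library. The fitted log2 differences were -2.46 ± 0.05 for DLD-1, -0.71 ± 0.04 for HCT-116 and -0.62 ± 0.06 for HT-29. Only 23 of 21814 tested genes had a lower value for DLD-1, against 1991 of 22975 for HCT-116 and 3037 of 23756 for HT-29. In these contrasts 34.7%, 42% and 47% of all genes passed the threshold, respectively. Because these contrasts picked the gene, they are given with no p, and its low rank among all genes is favoured by that choice. In bulk RNA, fewer expressing cells and less RNA per cell cannot be told apart.

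RPL22 was nearer to its uracil level than RPL22L1 in DLD-1 and HCT-116, and in HT-29 it was lower under 5-FU by about as much as its paralog. Its 5-FU libraries were at 606, 618 and 692 TPM in sensitive DLD-1, at 747, 716 and 801 TPM in HCT-116 and at 636, 641 and 654 TPM in HT-29. These were 102%, 90.0% and 67.0% of the uracil means. The libraries overlapped those of uracil in DLD-1, and lay below them in HCT-116 and HT-29. The fitted log2 differences were -0.12 ± 0.05, -0.10 ± 0.04 and -0.80 ± 0.04. In DLD-1 the fitted value was below 0 although the TPM mean was above that of uracil, and scaled by library size alone it was -0.02. With RPL22P1 counts added to RPL22, the fitted values were -0.12 ± 0.04 for DLD-1, -0.10 ± 0.04 for HCT-116 and -0.74 ± 0.04 for HT-29. The mean TPM of RPL22 with RPL22P1 in sensitive HT-29 went from 1132 ± 100 under uracil to 886 ± 47 under 5-FU.

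In sensitive DLD-1 the ratio of RPL22L1 to RPL22 was 0.201 ± 0.005 under 5-FU and in HCT-116 0.660 ± 0.034, both below the uracil ratios. In HT-29 it was 0.115 ± 0.008 under 5-FU and 0.102 ± 0.007 under uracil. There the 5-FU libraries, at 0.110 to 0.124, all lay above the uracil libraries, at 0.096 to 0.109, by a small margin. These ratios leave out RPL22P1, which in sensitive HT-29 was listed at 171 ± 102 TPM under uracil and 243 ± 54 TPM under 5-FU. The sum of the paralogs went from 1288 ± 40 to 766 ± 53 TPM in DLD-1, from 1657 ± 12 to 1251 ± 46 TPM in HCT-116 and from 1059 ± 34 to 718 ± 10 TPM in HT-29. The lower sum was made up mostly by RPL22L1 in DLD-1 and HCT-116 and by RPL22 in HT-29.

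In resistant cells RPL22L1 under 5-FU stayed near its uracil level. It was at 783, 821 and 790 TPM in resistant DLD-1 under 5-FU against 723, 756 and 786 TPM under uracil. In resistant HCT-116 it was at 672, 654 and 640.1 TPM against 717, 727 and 709.6 TPM, and there the libraries did not overlap. In the libraries labelled resistant HT-29 it was at 638, 619.6 and 659 TPM against 638, 613 and 595 TPM. The fitted log2 differences were 0.07 ± 0.05, -0.19 ± 0.04 and 0.03 ± 0.05. For RPL22 they were 0.08 ± 0.05, -0.08 ± 0.04 and -0.03 ± 0.04, with overlapping libraries in all of them. The response of RPL22L1 to 5-FU in resistant minus that in sensitive cells was 2.53 ± 0.07 in DLD-1 and 0.52 ± 0.06 in HCT-116. In HT-29 it was 0.64 ± 0.08, where the labelled resistant libraries carry HCT-116 markers. In these resistant contrasts 0.385%, 0% and 0.0421% of all genes passed with DLD-1, with HCT-116 and with the labelled resistant HT-29 libraries, respectively.

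Ordered by mean TPM, the 18 groups ran from 819 ± 19 TPM in sensitive HCT-116 under uracil to 74.1 ± 5.0 TPM in sensitive HT-29 under 5-FU, an 11.1-fold range. The first 11 groups, which included all 9 resistant ones, each overlapped their neighbour. From the eleventh place down, each group was separate from the next, in the order HCT-116 with 5-FU and irradiation, HCT-116 with 5-FU, DLD-1 with 5-FU and irradiation, DLD-1 with 5-FU and HT-29 with uracil, all of them sensitive. The lowest pair, HT-29 with 5-FU and with added irradiation, overlapped. RPL22 spanned a 1.78-fold range, from 961 ± 26 TPM in sensitive HT-29 under uracil to 540.3 ± 22.5 TPM in the libraries labelled resistant HT-29 with 5-FU and irradiation. Of its 17 neighbouring pairs of groups, 3 were separate.

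Resistant cells were compared with sensitive cells in the uracil groups, which received no 5-FU as a treatment. The resistant cells had, however, been raised and kept in 5-FU, so the contrast sets drug-exposed cells against cells without that history, and resistance and past exposure cannot be told apart. This contrast shares the sensitive uracil libraries with the 5-FU contrast that picked the gene. In DLD-1, RPL22L1 was higher in resistant cells by 0.16 ± 0.04 (edgeR adjusted p = 0.00677), with all 3 resistant libraries above all 3 sensitive ones. In HCT-116 it was lower by -0.21 ± 0.04 (adjusted p = 0.000442), again with no overlap. These contrasts called 24.6% and 41.1% of all genes. The DLD-1 call did not hold without replicate 2 (0.16, adjusted p = 0.0594) or replicate 3 (0.13, adjusted p = 0.108), without the deepest library alone (0.15, adjusted p = 0.036) or in a fit of only the 6 libraries compared (0.17, adjusted p = 0.0367).

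RPL22 in resistant DLD-1 was at 541, 639.7 and 704 TPM, a spread wider than that of the sensitive controls on both sides. The difference of 0.13 ± 0.05 did not pass (adjusted p = 0.0545), and without replicate 1, which held the lowest library, it was 0.22 (adjusted p = 0.00287). RPL22P1 had the reverse order in these resistant DLD-1 libraries, at 283, 189 and 83.1 TPM. RPL22 with RPL22P1 was at 813 ± 23 TPM there, against 628 ± 82 TPM for RPL22 alone. With RPL22P1 counts added, the fitted difference was 0.14 ± 0.04. In resistant HCT-116, RPL22 alone was at 700.2, 749 and 804 TPM, all below the sensitive controls. The difference of -0.12 ± 0.04 did not pass (adjusted p = 0.0156). The difference between resistant and sensitive cells was itself unlike in HCT-116 and DLD-1, by -0.36 ± 0.07 for RPL22L1 (adjusted p = 3.65e-05) and by -0.24 ± 0.07 for RPL22 (adjusted p = 0.00256), a test that 32.3% of all genes passed. The RPL22 call was lost without replicate 2 (adjusted p = 0.101), without the deepest library (adjusted p = 0.0118) and with only these groups fitted (adjusted p = 0.0151).

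The libraries labelled resistant HT-29 had RPL22L1 at 638, 613 and 595 TPM and RPL22 at 573, 594 and 575 TPM under uracil. Against sensitive HT-29, RPL22L1 was higher by 2.36 ± 0.06 (adjusted p = 5.85e-23) and RPL22 lower by -1.07 ± 0.04 (adjusted p = 4.04e-18), where 68.4% of all genes passed. Resistance and the marker mismatch cannot be told apart in that contrast. Against sensitive HCT-116 both paralogs were lower, RPL22L1 by -0.54 ± 0.05 (adjusted p = 9.51e-13) and RPL22 by -0.52 ± 0.05 (adjusted p = 2.77e-13), with 30.2% of genes called. Against resistant HCT-116 they were lower by -0.34 ± 0.05 (adjusted p = 3.53e-07) and -0.41 ± 0.05 (adjusted p = 6.29e-10), with 20.2% of genes called. The ratio of the paralogs in these libraries, 1.06 ± 0.05, lay far from the 0.102 ± 0.007 of sensitive HT-29. It lay near the uracil ratios of sensitive DLD-1 (1.07 ± 0.01), sensitive HCT-116 (0.977 ± 0.035) and resistant HCT-116 (0.959 ± 0.071). The ratio thus does not set HCT-116 apart from DLD-1.

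**Figure D3:**
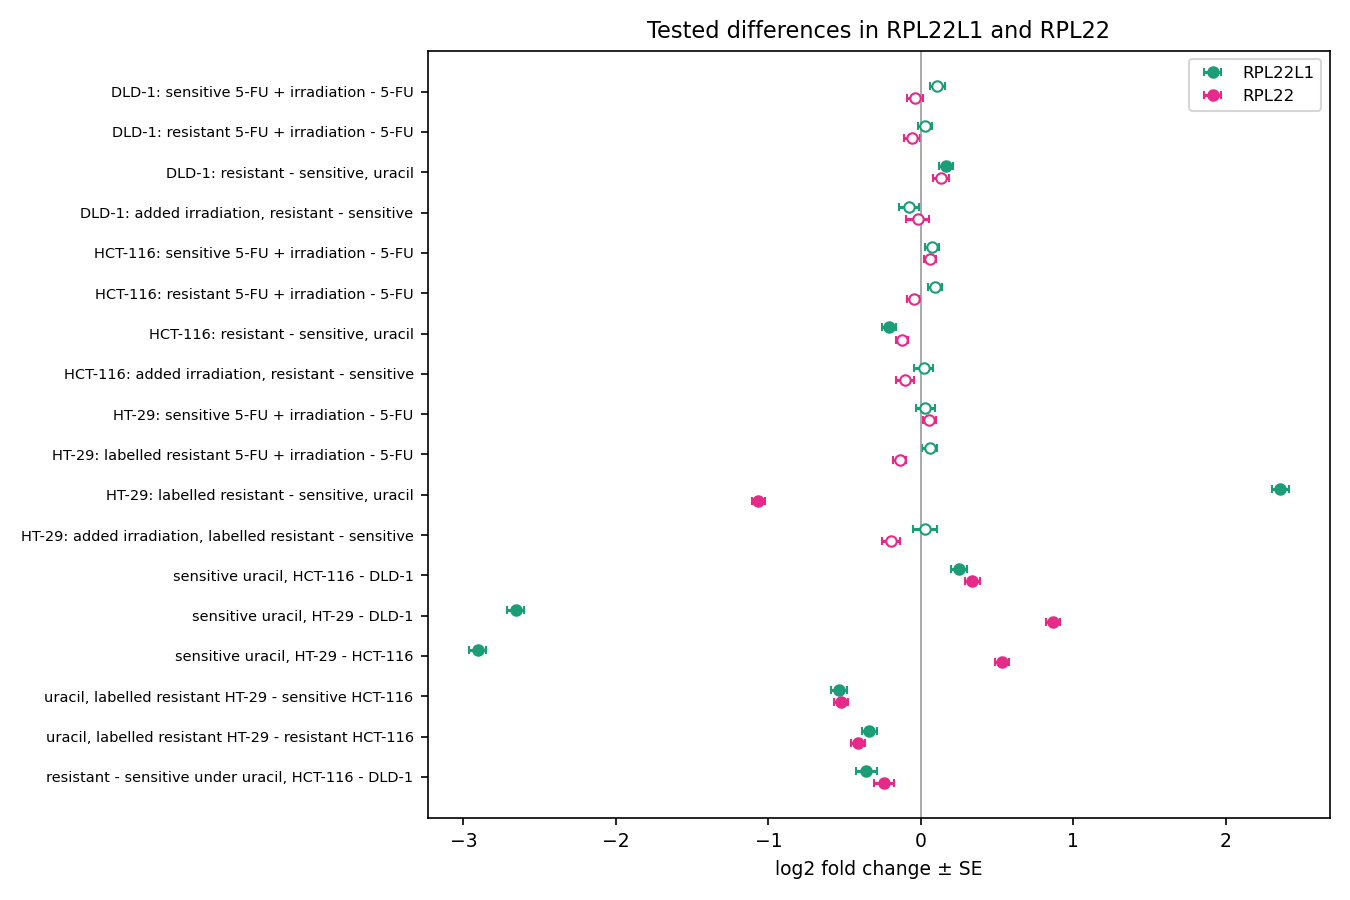
Log2 fold change ± SE of RPL22L1 and RPL22 (horizontal axis) in each tested comparison, with filled circles where the adjusted p was at most 0.01. The differences between HT-29 and the other lines reach -2.91 for RPL22L1, and those under added irradiation stay within 0.19 of 0.

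Irradiation added to 5-FU was tested against 5-FU alone. This contrast shares the 5-FU libraries with the comparison that picked RPL22L1 for low values in them, so a higher value of RPL22L1 with irradiation in sensitive cells is favoured by that choice. RPL22L1 had 139, 149 and 137 TPM in sensitive DLD-1, 572, 512 and 519 TPM in sensitive HCT-116 and 75.0, 76.5 and 81.1 TPM in sensitive HT-29. In sensitive HCT-116 and DLD-1 all irradiated libraries lay above all 5-FU libraries, and in HT-29 they overlapped. Of the 12 tests over both genes, 3 lines and both forms, 0 passed edgeR's adjusted threshold, 2 had an unadjusted p under 0.05 and DESeq2 called 1. The background was low in sensitive cells, at 0.0642% of genes for DLD-1, 0.927% for HCT-116 and 0.00842% for HT-29. In resistant cells it was 3.85% for DLD-1, 2.58% for HCT-116 and 14.4% for the libraries labelled resistant HT-29.

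RPL22L1 under added irradiation was at 0.11 ± 0.05 in sensitive DLD-1 (edgeR adjusted p = 0.441), 0.07 ± 0.05 in sensitive HCT-116 (adjusted p = 0.733) and 0.03 ± 0.06 in sensitive HT-29 (adjusted p = 1). The value farthest from 0 was that of RPL22 in the libraries labelled resistant HT-29, at -0.14 ± 0.04 (adjusted p = 0.0166), where RPL22 was at 566, 531 and 524 TPM with irradiation and at 596, 587 and 573 TPM without. This difference was past the threshold in DESeq2 (-0.15, adjusted p = 0.00509) and in edgeR with library-size scaling (-0.11, adjusted p = 0.00265) or with only the groups compared (-0.14, adjusted p = 0.00153). Of the 6 tests of whether resistant and sensitive cells differed in this response, 0 passed in edgeR, 1 had an unadjusted p under 0.05 and DESeq2 called 1, again RPL22 in HT-29 (-0.19 ± 0.06, edgeR adjusted p = 0.0339). In edgeR it passed with library-size scaling (-0.17, adjusted p = 0.00274) and with only the groups compared (-0.20, adjusted p = 0.00345), and with RPL22P1 counts added it was -0.12 (adjusted p = 0.257). That test passed for 0.0413% of all genes with DLD-1 cells, 0.165% with HCT-116 cells and 5.4% with the HT-29 pair.

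The isoforms of RPL22L1 did not share the decrease under 5-FU equally. In sensitive DLD-1 the coding transcript RPL22L1-202 went from 396, 347 and 349 TPM under uracil to 32.7, 38.8 and 39.6 TPM under 5-FU. The decay-annotated RPL22L1-204 went from 118, 119 and 113 TPM to 55.6, 49.3 and 61.6 TPM. Both were lower in every 5-FU library than in any uracil library. The fitted log2 differences were -3.41 ± 0.12 for RPL22L1-202, -3.03 ± 0.09 for RPL22L1-201, -2.47 ± 0.10 for RPL22L1-203 and -1.18 ± 0.15 for RPL22L1-204. RPL22L1-206 was at 1.29 TPM or less on average in DLD-1 in both conditions.

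Transcripts with the longer exon 3, RPL22L1-204 and RPL22L1-206 together, made up 17.0%, 18.5% and 17.4% of RPL22L1 TPM in sensitive DLD-1 under uracil. Under 5-FU they made up 45.9%, 41.0% and 46.2%, and with added irradiation 37.2%, 44.1% and 40.0%. Transcripts with the shorter exon went from 548 ± 25 to 71.1 ± 3.7 TPM and those with the longer one from 117 ± 3 to 56.8 ± 5.5 TPM. The share of the longer exon was thus higher under 5-FU, and its level was lower. In sensitive HCT-116 the share was 15.9%, 17.2% and 16.1% under uracil and 23.6%, 20.8% and 20.9% under 5-FU. There too no library overlapped, and the longer exon went from 134 ± 4 to 108 ± 9 TPM.

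Sensitive HT-29 had most of its RPL22L1 in transcripts with the longer exon in every condition, at 59.4%, 62.6% and 59.7% under uracil and at 61.1%, 57.8% and 57.7% under 5-FU. In level, the longer exon was at 59.3 ± 4.3 TPM under uracil in HT-29 and the shorter at 38.7 ± 4.8 TPM. The resistant groups, those labelled HT-29 included, had mean shares of 17.2% to 20.4% in all 3 treatments. The group means of the share were therefore highest in the groups with the lowest RPL22L1. Both measures come from the same transcripts, and at low counts the division of reads among isoforms rests on fewer reads.

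**Figure D4:**
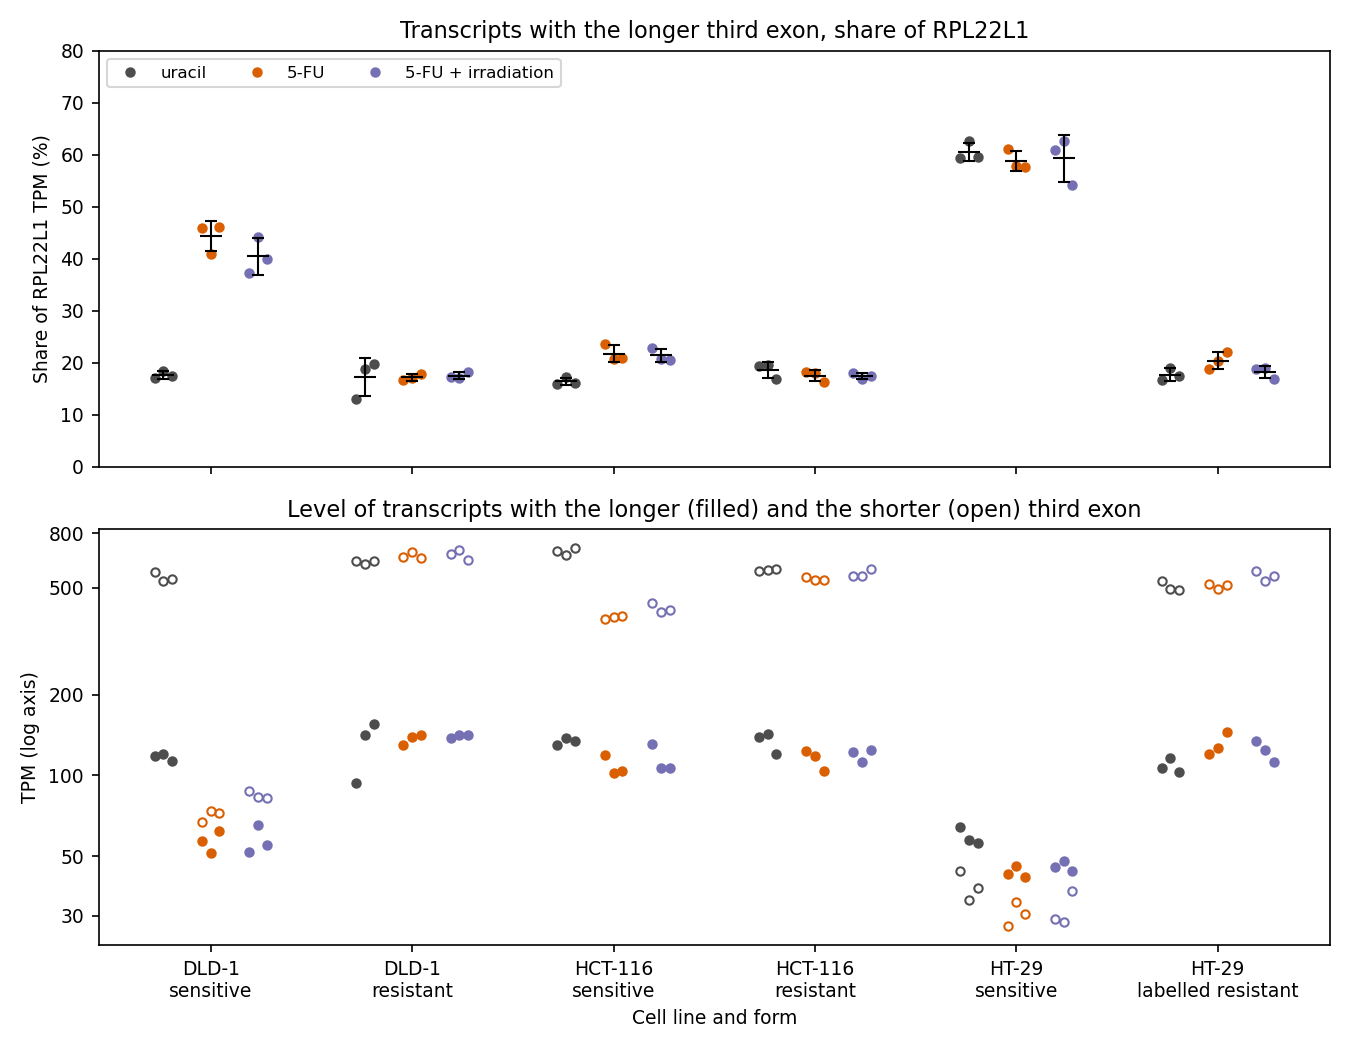
Share of RPL22L1 TPM in transcripts with the longer exon 3 (top, %, bars at mean ± SD of 3 libraries) and TPM of transcripts with the longer (filled) and shorter (open) exon 3 on a log axis (bottom). Sensitive DLD-1 goes from 17.6% under uracil to 44.4% under 5-FU, sensitive HT-29 stays between 54.2% and 62.7%, and the resistant group means stay between 17.2% and 20.4%.

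Of the comparisons of this share other than 5-FU with uracil, 13 were tested with two-sided exact permutation tests. Some of them share the 5-FU or uracil libraries with it. In these tests 3 libraries against 3 cannot give a p below 0.1. Sensitive HT-29 differed from DLD-1 by 42.9 percentage points, from HCT-116 by 44.2 and from the libraries labelled resistant HT-29 by 42.9, each with no overlap and at the smallest p possible (exact p = 0.1, adjusted p = 0.433 over the 13 tests). Resistant and sensitive cells under uracil differed by -0.44 points in DLD-1 (exact p = 1) and 2.22 points in HCT-116 (exact p = 0.2), with overlapping libraries. Added irradiation changed the mean share by at most 3.94 points, in sensitive DLD-1, where it was lower (exact p = 0.2). At the transcript level, 64 edgeR tests of added irradiation gave 0 past the threshold, with 0.438 as the lowest adjusted p and 6 with an unadjusted p under 0.05. Few transcripts of any gene passed there. In sensitive cells the share was 0.00215% for DLD-1, 0.07% for HCT-116 and 0.00694% for HT-29, and in resistant cells 0.0775% for DLD-1, 0.0134% for HCT-116 and 0.52% for the libraries labelled resistant HT-29.

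RPL22 was made up mainly of RPL22-205 and RPL22-201, both annotated as coding. In sensitive uracil cells RPL22-205 held 63.4% of RPL22 TPM for DLD-1, 63.6% for HCT-116 and 58.6% for HT-29, and RPL22-201 held 28.8%, 28.0% and 35.8%. Under 5-FU their shares were 65.4%, 62.2% and 58.9% for RPL22-205 and 26.6%, 28.5% and 36.0% for RPL22-201. The order of these transcripts was the same under both treatments in each sensitive line. RPL22-202 and RPL22-203 reached at most 0.97 and 1.26 TPM.

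Between resistant and sensitive cells under uracil, transcripts were tested with edgeR over all transcripts kept in a line. In DLD-1, 1 of 10 transcripts of the pair passed, RPL22-201, which was higher in resistant cells by 0.30 ± 0.05 (adjusted p = 0.00389), where 3.1% of all transcripts passed. In HCT-116, 2 of 10 passed against 9.02% of all transcripts. RPL22L1-202 was lower in resistant HCT-116 by -0.33 ± 0.08 (adjusted p = 0.00829). RPL22-206, the retained-intron transcript of RPL22, was higher by 1.04 ± 0.10 (adjusted p = 5.21e-06). It was at 10.2, 14.1 and 11.5 TPM in sensitive and 28.2, 27.4 and 21.9 TPM in resistant HCT-116, with no overlap. In DLD-1 the same transcript differed by -0.09 ± 0.12 (adjusted p = 0.819). The rise of RPL22-206 was not limited to resistant cells. Under 5-FU against uracil, given with no test, it was at 0.71 ± 0.10 in sensitive HCT-116, -0.003 ± 0.124 in DLD-1 and -0.59 ± 0.11 in HT-29. Calls for transcripts were fewer than the changes present in simulated counts, since 94 of 200 simulated transcript changes were recovered at this threshold in DLD-1. The RPL22-201 call did not hold when any 1 replicate was left out.

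In the libraries labelled resistant HT-29 against sensitive HT-29, 9 of 12 tested transcripts passed, against 30.2% of all transcripts. Of RPL22L1, 4 of 5 were higher, by 3.68 ± 0.27 for RPL22L1-202 (adjusted p = 2.55e-08), 3.43 ± 0.17 for RPL22L1-201 (adjusted p = 3.03e-10), 2.98 ± 0.22 for RPL22L1-203 (adjusted p = 3.05e-08) and 0.62 ± 0.10 for RPL22L1-204 (adjusted p = 0.000165). Transcripts with the shorter exon 3 thus had the wider gap. Of RPL22, 4 of 7 were lower, among them RPL22-201 by -1.31 ± 0.06 and RPL22-205 by -0.97 ± 0.06, and RPL22-206 was higher by 1.28 ± 0.11 (adjusted p = 1.28e-07). The level of RPL22-206 in these libraries, 24.1, 21.9 and 24.2 TPM, was near the 21.9 to 28.2 TPM of resistant HCT-116.

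The ribosomal protein genes give the setting of these changes. Their list held 78 genes besides RPL22 and was chosen with earlier results of these data known. Under 5-FU, 61 of 78 were lower and 0 higher in sensitive DLD-1 at an adjusted p of at most 0.01, where 20.3% of all genes were lower, and their median was -0.24 against 0.01 over all genes. In sensitive HCT-116, 23 were lower and 1 higher against 24.4% of all genes lower, with a median of -0.06, and 8 passed without replicate 1 and 12 without replicate 3. In sensitive HT-29, 77 were lower and 0 higher against 24.9%, with a median of -0.80, and 18 were lower by at least 2-fold against 3.3% of all genes. In DLD-1 and HCT-116, RPL22L1, which was picked for its decrease here, was below the median of the list, and in HT-29 it was above it.

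Scaling by library size alone raised the median of all genes under 5-FU to 0.12 for DLD-1, 0.11 for HCT-116 and 0.19 for HT-29. The counts were then 40 lower and 3 higher for DLD-1, 12 lower and 11 higher for HCT-116 and 76 lower and 1 higher for HT-29. The split between lower and higher calls moved most in HCT-116, where the list median was then 0.02 and below that of all genes, as with the scaling used for the other values. The genes with the widest change were RPL3, a protein of the peptidyl transferase centre, at -0.81 ± 0.04 in DLD-1, and RPL10A, a protein of a mobile stalk near the exit site, at -0.67 ± 0.04, and RPL12, at the base of the acidic stalk, at -0.52 ± 0.05. In HCT-116 the same genes led, with RPL12 at -0.75 ± 0.05, RPL3 at -0.58 ± 0.04 and RPL10A at -0.50 ± 0.04. In HT-29 the leading genes were RPL3 at -1.56 ± 0.05, RPL14 at -1.29 ± 0.04 and RPL13A at -1.23 ± 0.05.

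**Figure D5:**
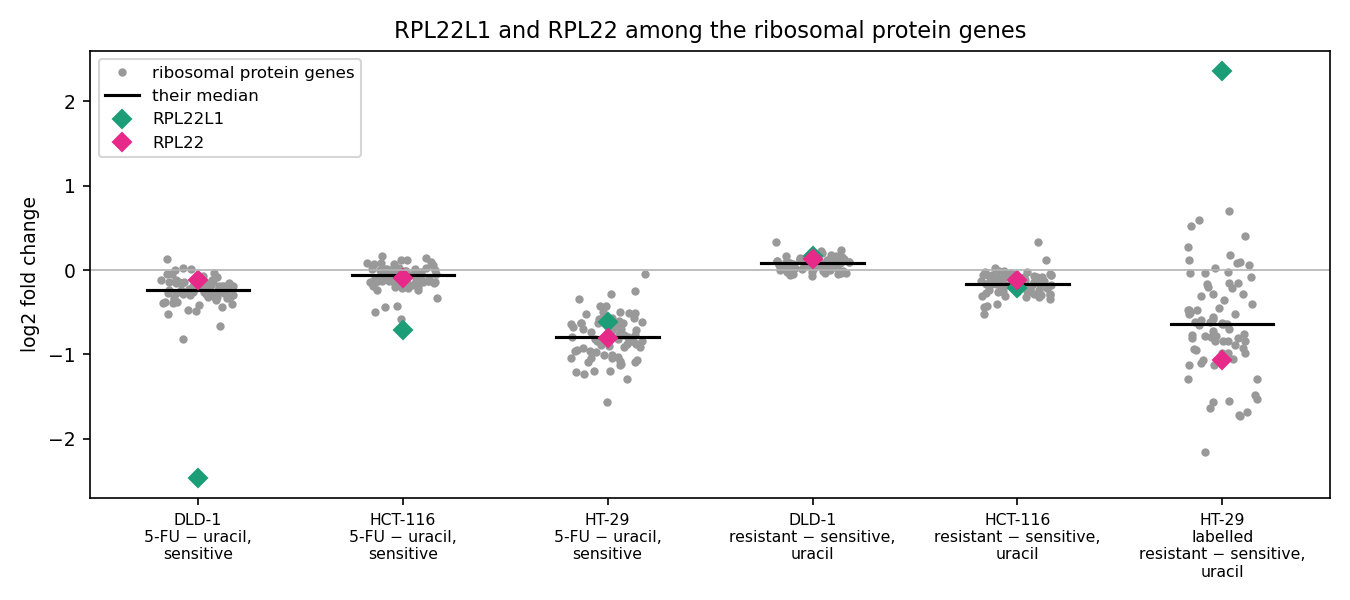
Log2 fold change (vertical axis) of the 78 ribosomal protein genes (grey points, black line at their median), RPL22L1 and RPL22 in 6 comparisons. Under 5-FU, the contrast that picked it, RPL22L1 of sensitive DLD-1 lies at -2.46, below all 78 genes, of which the lowest is at -0.81.

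Between resistant and sensitive cells under uracil, 0 of the 78 were lower and 11 higher in DLD-1 (13.1% of all genes higher), and 44 were lower and 1 higher in HCT-116 (24.7% of all genes lower). The median of the list was 0.08 for DLD-1 and -0.16 for HCT-116. For DLD-1, 22 genes passed without replicate 1, 3 without replicate 2, 3 without replicate 3, 7 without the deepest library and 3 with only the groups compared. For HCT-116, 23 passed without replicate 1, 28 without replicate 3 and 29 with only the groups compared. In the libraries labelled resistant HT-29, 63 were lower and 6 higher against sensitive HT-29, with 34.3% of all genes lower and 34.1% higher, and scaled by library size alone 55 were lower and 18 higher. RPL22L1 and RPL22 lay within the spread of the list in DLD-1 and HCT-116. In the libraries labelled resistant HT-29 RPL22L1, at 2.36, lay above the highest of the list, 0.70.

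The list of 7 other paralogs of ribosomal proteins held RPL10L, at most at 0.0445 TPM in any library and tested in no line, and RPL3L, a muscle paralog with group means of at most 0.485 TPM that passed in no sensitive line under 5-FU. RPL7L1 was lower under 5-FU in sensitive DLD-1 (-0.18 ± 0.04, edgeR adjusted p = 0.000904) and HT-29 (-0.45 ± 0.04). RPL36AL was lower in all 3 lines, by -0.24 ± 0.05 for DLD-1, -0.17 ± 0.05 for HCT-116 and -0.44 ± 0.05 for HT-29. It had the direction of RPL22L1 there and in the comparison of resistant with sensitive cells under uracil, at 0.07 ± 0.05 for DLD-1, which did not pass, -0.26 ± 0.05 for HCT-116 (adjusted p = 0.00018) and 0.43 ± 0.05 for the libraries labelled resistant HT-29 (adjusted p = 1.79e-08). RPL26L1 was lower in HT-29 only at this threshold (-0.82 ± 0.07), and whether the lines differed was not tested.

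RPL39L, a testis-enriched paralog, was higher in DLD-1 by 1.29 ± 0.36 from a level of 1.36 ± 0.11 TPM. RPS27L rose in HCT-116 by 1.31 ± 0.05, from 192 ± 5 to 485 ± 4 TPM, and in HT-29 by 0.19 ± 0.05. In DLD-1 it was at -0.06 ± 0.05 and did not pass. Under uracil, RPS27L was lower in resistant than in sensitive cells by -0.31 ± 0.05 in DLD-1 and -0.20 ± 0.05 in HCT-116. In the libraries labelled resistant HT-29 it was higher than in sensitive HT-29, by 0.41 ± 0.05 (edgeR adjusted p = 9.24e-08).

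CDKN1A, a cell cycle inhibitor, rose under 5-FU by 1.60 ± 0.06 in sensitive HCT-116, from 220 ± 8 to 664 ± 11 TPM. In sensitive HT-29 it rose by 3.91 ± 0.07 from a far lower level, 1.88 ± 0.35 TPM, to 30.9 ± 0.4 TPM. In DLD-1 it was at -0.37 ± 0.20 and did not pass. MDM2, a ubiquitin ligase, rose in HCT-116 by 1.30 ± 0.05 and passed in neither other line. In DLD-1, where MDM2 was at -0.03 ± 0.05, both genes thus stayed short of the threshold.

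Of the 4 RNAs linked to the paralogs, MDM4 and SMAD2 are known for splicing that these proteins can alter. The values given here are totals per gene, and splicing of these RNAs was not tested. MDM4 passed under 5-FU in no sensitive line (0.05 ± 0.06 for DLD-1, 0.17 ± 0.07 for HCT-116 and 0.14 ± 0.06 for HT-29). SMAD2 was higher in DLD-1 by 0.14 ± 0.04 and lower in HT-29 by -0.21 ± 0.04. UBAP2L was higher in HCT-116 by 0.13 ± 0.03 and lower in HT-29 by -0.15 ± 0.04. In sensitive HT-29, however, neither SMAD2 nor UBAP2L had a lower mean TPM under 5-FU. SMAD2 was at 65.3 ± 2.5 TPM under uracil and 67.5 ± 1.0 TPM under 5-FU, and UBAP2L at 178 ± 5 and 182 ± 6 TPM. Their direction in HT-29 thus differed between the fitted counts and TPM. LIN28B had group means of at most 0.178 TPM.

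Among the 8 genes whose levels ran most alike with RPL22L1 over the 18 group means, out of 9774 genes that varied, were SDF2L1 (Pearson r = 0.97), AL121594.1 (0.97), ABRAXAS1 (0.96), ACADS (0.95), HSPA5 (0.95), BLMH (0.95) and HSP90B1 (0.95). ITFG2 (-0.95), FAM160A2 (-0.94) and RRN3P3 (-0.94) ran most opposed. These are descriptions over 18 means that share lines and controls. Without the libraries labelled resistant HT-29, 6 of the 8 genes stayed among the first 8. For RPL22 the first 5 were RPL23 (0.89), RPL13A (0.86), RPL36A (0.85), RPL37 (0.81) and CRYZL2P (0.80), and 0 of these 5 stayed without those libraries. RPL22L1 and RPL22 themselves had r = -0.16 over the 18 means and -0.01 over the 15 without those libraries. Within the 6 means of a line, r was 0.43 for DLD-1, 0.20 for HCT-116 and -0.71 for HT-29. The last joins sensitive HT-29 with the libraries labelled resistant, which carry HCT-116 markers, so it does not describe HT-29 alone. Over the sensitive HT-29 means, for which r was not calculated, both genes were highest under uracil and lowest under 5-FU, with added irradiation between. With RPL22P1 counted in, RPL22 was instead lowest with added irradiation, at 787 ± 17 TPM against 886 ± 47 TPM under 5-FU.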

How the data were processed

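Values were those the authors deposited for the 54 libraries, kallisto 0.44.0 estimated counts and TPM per transcript (GRCh38.p13, Ensembl, after Trimmomatic 0.36, per the labels and the study's methods) and their sums per gene. The libraries were directional, paired-end and poly(A)-selected. Deposited estimated counts were rounded to whole numbers. edgeR 4.0.16 in R 4.3.3 was fitted per line over 18 libraries in 6 groups, and over 54 libraries between lines, with TMM scaling, filterByExpr and Benjamini-Hochberg adjustment over all genes or transcripts (threshold 0.01). Precision is limited by 3 libraries a group. Error terms are SE for log2 values and SD for TPM and shares. On simulated counts with 200 changes of log2 1.5, 197 to 199 genes but 94 transcripts (DLD-1) were recovered, and the pass criterion for transcripts was relaxed after that result. Members and lists were chosen with earlier results of these data known. Named ribosomal protein genes were the 3 with the widest change per sensitive line among those past the threshold, and pattern genes those with the most extreme r of log2(TPM + 1), at a mean of 10 TPM or more in a group and an SD of 0.25 or more. Tests of the exon share and of transcripts under irradiation, and the addition of RPL22P1 to RPL22, were added after the data were seen. Alternatives were DESeq2 1.42.0, library-size scaling, no low-count filter, only the compared groups, a replicate block and each replicate left out. Same-numbered libraries of a line did not deviate together (r from -0.087 to 0.103 over 45 pairs per line, 2 above 0.1), and replicates of a group differed by more than sampling noise. Exon positions and sequences are those of GENCODE 44 on GRCh38. Python 3.11.15 was used for the rest. A few genes of the lists are not reported here.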

Additional observations from a re-analysis of the deposited data

Results flagged for a closer look

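The difference between resistant and sensitive cells under uracil was not the same in HCT-116 as in DLD-1. For RPL22L1, resistant minus sensitive was higher in DLD-1 and lower in HCT-116, and the difference of these differences was -0.36 ± 0.07 (log2, edgeR adjusted p = 3.65e-05). For RPL22 it was -0.24 ± 0.07 (adjusted p = 0.00256), although neither line alone passed for that gene. The RPL22 value did not pass without replicate 2 (-0.20, adjusted p = 0.101), without the deepest library (-0.22, adjusted p = 0.0118) or in a fit of only these groups (-0.25, adjusted p = 0.0151). The deepest library, sensitive DLD-1 under uracil, is one of the 12 libraries behind both values, and its part in the RPL22L1 value was not tested beyond leaving it out, where the call held.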

How the results depend on the processing

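Scaled by library size alone, the 5-FU differences of RPL22L1 were -2.36 for sensitive DLD-1, -0.63 for HCT-116 and -0.46 for HT-29. Leaving out 1 replicate gave -0.74 to -0.68 in HCT-116 and, in HT-29, -0.50 without replicate 1. The gene was picked for a decrease in these same libraries, so the sign of these values is favoured by that choice. RPL22L1 in resistant against sensitive DLD-1 under uracil did not pass in a fit of only the groups compared (0.17) and ranged from 0.13 to 0.22 when a replicate was left out, and RPL22 in the same contrast from 0.094 to 0.22. The HCT-116 minus DLD-1 difference of RPL22 did not pass in a fit of only the groups (-0.25) and ranged from -0.32 to -0.20 with a replicate left out. Added irradiation changed sign near 0 for RPL22 in sensitive DLD-1 (-0.072 to 0.0065) and HCT-116 (-0.0036 to 0.10), for RPL22L1 in sensitive HT-29 (-0.0056 to 0.055), and in the resistant minus sensitive difference for RPL22L1 from -0.070 to 0.10 (HCT-116) and from -0.028 to 0.089 (HT-29). RPL22 in the libraries labelled resistant HT-29 passed under added irradiation by library size (-0.11), only the groups (-0.14) and DESeq2 (-0.15), and so did its difference from sensitive HT-29 (-0.17, -0.20 and -0.20). With RPL22P1 counts added, RPL22 in sensitive HT-29 under added irradiation was at -0.026.

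Ribosomal protein genes called between resistant and sensitive DLD-1 were 17 by library size, 3 in a fit of only the groups and 3 to 22 with a replicate left out. In HCT-116 they were 29 in a fit of only the groups and 23 to 40 with a replicate left out, and under 5-FU 8 to 32. Transcripts of the pair called in DLD-1 were 0 with any replicate left out and 2 by DESeq2, and in HCT-116 1 by library size, 1 with no filter, 5 by DESeq2 and 1 to 2 with a replicate left out.

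Same-numbered libraries shared only a number. With the replicate number as a block, transcripts called were 0 for DLD-1 and 4 for HCT-116, and RPL22-207 in DLD-1 was at -0.11. The block changed no call of RPL22L1 or RPL22 at the gene level.

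Signs also changed among single transcripts that had not passed between resistant and sensitive cells under the settings as reported. By library size they changed for RPL22-207 in DLD-1 (-0.015) and for RPL22L1-204 in HCT-116 (0.039). With a replicate left out they changed in DLD-1 for RPL22-204 (-0.39 to 0.47), RPL22-205 (-0.27 to 0.050), RPL22-206 (-0.17 to 0.035), RPL22-207 (-0.52 to 0.35) and RPL22L1-204 (-0.011 to 0.36), and in HCT-116 for RPL22-207 (-0.82 to 0.10), RPL22L1-204 (-0.13 to 0.017) and RPL22L1-206 (-0.050 to 0.87). Of the values that answer a comparison, 374 stayed the same, 28 moved, 6 changed sign, 7 lost and 7 gained a call. Of the others, 366 stayed the same, 18 moved, 11 changed sign, 15 lost and 6 gained a call. A tested difference stayed the same if it kept its direction and side of the threshold. An untested difference did if it shifted by less than the SD between replicates. A count did if its size was similar, and a gene list if most of its genes were shared. The cause of the changes was not tested. Transcripts under a few TPM, and the division of reads between RPL22 and RPL22P1, limit what these depths show.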
